A study of Mus musculus with 15 samples.

Results

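Siglech, Ly6d, Klk1, Cox6a2, Dntt, Tcf4, Runx2, Irf8 and Pld4 are 9 genes that mark plasmacytoid dendritic cells in the mouse, with Dntt, a gene of lymphoid precursors, listed beside the other 8. They were followed here in 2 kinds of innate lymphoid cell, ILC2 and ILC3, which are lymphocytes that lack rearranged antigen receptors. All 9 were found among the 22797 genes of the deposited files. The members were chosen by name, in knowledge of their levels in these libraries, so their difference between ILC2 and ILC3 and their joint variation are described without a test. All libraries came from the small intestine of female mice. The hour of sampling is given as zeitgeber time (ZT, hours on the clock that the animals' surroundings set): ZT4, ZT10, ZT16 or ZT23. Per the labels' protocols, cells of 6 mice per time were pooled before staining and sorting by flow cytometry. No strain, age, genotype or treatment beyond the time of day was given, and neither were the sort markers. The 7 ILC2 libraries (2 each at ZT4, ZT10 and ZT23, and 1 at ZT16) carry batch 1 in their labels and the 8 ILC3 libraries (2 at each time) carry batch 2, so cell type and batch cannot be told apart. The series' design text calls the replicates biological, but nothing says whether the 2 libraries of a time came from separate pools of mice, so the p-values measure the spread between these libraries, which may be technical.

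Plasmacytoid dendritic cells are rare dendritic cells that sense viral nucleic acids in endosomes and release large amounts of type I interferon; the small intestine holds a population that homes there through the chemokine receptor Ccr9. The E protein Tcf4 (E2-2) sets and holds their identity, Irf8 and Runx2 act beside it, and Siglech is the surface receptor most often used to recognise them in mice. Some of these cells carry traces of a lymphoid origin, among them Dntt and rearranged D to J segments of the heavy chain locus. ILC2 make type 2 cytokines under the factor Gata3, and ILC3 make interleukin 22.

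Library totals were 4016298 to 18538315 counts for ILC2 and 5903163 to 24794403 counts for ILC3. Gata3 was at 506 ± 140 CPM (counts per 1e+06 counts of the library, scaled with TMM factors; SD, n = 7) in ILC2 and at 35.1 ± 11.9 CPM in ILC3 (SD, n = 8), and Il22, the cytokine gene of ILC3, was at 12.7 ± 8.54 CPM in ILC2 and 638 ± 417 CPM in ILC3, so both marker genes followed the labels. Markers of other cells were present in both. The summed level of 10 plasma cell markers lay between 21168 and 203871 CPM in ILC2 and between 880 and 4942 CPM in ILC3, and the sum of 12 conventional dendritic cell markers between 566 and 920 CPM in ILC2 and between 1307 and 4689 CPM in ILC3. The sum of 12 macrophage and monocyte markers ran from 419 to 2757 CPM in ILC2 and from 1079 to 3009 CPM in ILC3, and that of 12 epithelial markers from 81.6 to 704 CPM in ILC2 and from 190 to 4555 CPM in ILC3. In bulk RNA, fewer cells of a type and less RNA per cell cannot be told apart.

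The E-box, the 6-letter pattern CANNTG, is the core that E proteins such as Tcf4 bind. The promoter windows of 3 members with 3 matches each are shown because their genes moved together in ILC2, and the first window of Irf8 is shown because it followed Siglech most closely and held no match. Windows run from 250 bases before to 50 after the annotated start, were taken from RefSeq on GRCm38.p6 and are written 5′ to 3′ on the gene's strand, with E-box matches in capitals. They lie at chr7:55767934-55768233 (Siglech, plus strand), chr19:41029025-41029324 (Dntt, plus), chr7:44225110-44225409 (Klk1, plus) and chr8:120736108-120736407 (Irf8, plus). Counted from the gene starts given below, the placement of 250 bases before to 50 after holds for Dntt, Klk1 and Irf8. The Siglech window begins closer to its gene start and ends further past it.
Siglech: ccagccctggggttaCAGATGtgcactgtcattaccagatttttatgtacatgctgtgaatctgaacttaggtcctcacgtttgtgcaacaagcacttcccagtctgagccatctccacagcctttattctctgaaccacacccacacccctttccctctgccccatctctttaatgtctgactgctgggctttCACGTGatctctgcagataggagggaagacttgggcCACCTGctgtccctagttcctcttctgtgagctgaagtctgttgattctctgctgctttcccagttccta
Dntt: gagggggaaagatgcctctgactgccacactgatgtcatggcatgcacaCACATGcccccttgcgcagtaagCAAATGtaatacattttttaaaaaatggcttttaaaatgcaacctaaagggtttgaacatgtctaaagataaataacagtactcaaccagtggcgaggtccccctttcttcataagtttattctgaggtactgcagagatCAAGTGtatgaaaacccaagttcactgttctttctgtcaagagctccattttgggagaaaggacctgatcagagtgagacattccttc
Klk1: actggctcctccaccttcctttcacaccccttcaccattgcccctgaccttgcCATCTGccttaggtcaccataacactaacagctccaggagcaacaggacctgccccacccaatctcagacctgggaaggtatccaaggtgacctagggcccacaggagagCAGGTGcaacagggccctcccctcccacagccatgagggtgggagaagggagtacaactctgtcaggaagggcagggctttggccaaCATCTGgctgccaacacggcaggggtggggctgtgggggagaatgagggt
Irf8: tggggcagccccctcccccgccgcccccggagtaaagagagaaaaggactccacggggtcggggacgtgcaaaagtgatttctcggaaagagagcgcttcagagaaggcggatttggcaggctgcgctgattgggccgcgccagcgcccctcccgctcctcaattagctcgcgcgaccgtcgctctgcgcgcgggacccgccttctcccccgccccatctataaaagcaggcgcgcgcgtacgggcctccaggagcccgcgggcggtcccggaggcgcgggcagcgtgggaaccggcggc
Of all 32851 windows of this length, 72.3% held at least 1 E-box and 17.6% held 3 or more, so a match by itself is common. RefSeq windows were matched for 6 of the 9 members. Pld4 had 1 E-box, Runx2 had 2, and a second annotated start of Irf8 had 2. The runt motif TGTGGT, searched on both strands as TGTGGT or ACCACA, was in 16.8% of all windows; it occurred 1 time at Siglech and 3 times at Runx2. The composite motif of Ets and interferon regulatory factors, GGAA, any 2 bases and GAAA on either strand, was in 2.72% of all windows and in none of the 7 windows of members. A match is a description of the sequence, not evidence of binding.

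Siglech (Entrez gene 233274, chromosome 7, 55768154 to 55779448), a sialic acid-binding receptor of the plasmacytoid dendritic cell surface, had 100, 397, 263, 287, 316, 401 and 324 CPM in the ILC2 libraries of ZT4 (replicates 1 and 2), ZT10 (1 and 2), ZT16 and ZT23 (1 and 2). In ILC3 it had 2.79 and 2.48 CPM at ZT4, 0.756 and 1.70 CPM at ZT10, 2.50 and 3.64 CPM at ZT16, and 0.928 and 4.24 CPM at ZT23. Every ILC2 library lay above every ILC3 library, with ZT4 replicate 1 far below the other 6 ILC2 libraries. The fitted log2 fold change, ILC2 minus ILC3, was 7.06 ± 0.41 (SE), 133-fold. Reads still fell on Siglech in each ILC3 library, 351 in all.

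Dntt (Entrez gene 21673, chromosome 19, 41029275 to 41059525) encodes terminal deoxynucleotidyl transferase, which adds untemplated nucleotides at antigen receptor joints in lymphoid precursors. It had 8.84 and 61.3 CPM at ZT4, 25.1 and 43.2 CPM at ZT10, 31.4 CPM at ZT16 and 49.0 and 25.7 CPM at ZT23 in ILC2. In ILC3 the 8 libraries together held 13 counts of Dntt, spread over 5 libraries, against 2976 counts over all 7 ILC2 libraries. The ratio of pooled levels, ILC2 over ILC3, was 457 with an exact 95% interval of 267 to 859 that covers counting error only. The fitted log2 fold change of 8.63 ± 0.62 (SE) rests on those 13 counts in ILC3 and moved to 9.66 without ILC3 ZT4 replicate 2 and to 9.48 without ILC3 ZT10 replicate 2.

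Ly6d (Entrez gene 17068, chromosome 15, 74762056 to 74763567) encodes an anchored surface protein that marks lymphoid progenitors able to form B cells and plasmacytoid dendritic cells. It had the highest mean of the members in ILC2, 402 ± 216 CPM (SD, n = 7). In both ZT10 libraries and in ZT23 replicate 2 of ILC2 it lay below Siglech and Irf8. Its ILC2 libraries had 357 and 517 CPM at ZT4, 243 and 253 CPM at ZT10, 450 CPM at ZT16, and 811 and 183 CPM at ZT23. ILC3 libraries had 2.05 and 12.5 CPM at ZT4, 1.79 and 2.26 CPM at ZT10, 7.28 and 6.84 CPM at ZT16, and 14.3 and 29.8 CPM at ZT23. The cell types did not overlap, and the log2 fold change was 5.81 ± 0.42. Within each cell type the libraries spread widely, and the highest was a ZT23 library in both.

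Klk1 (Entrez gene 16612, chromosome 7, 44225360 to 44229622), a tissue kallikrein, is a serine protease gene of a large mouse family whose members resemble one another closely, so reads may have been split between copies. It ranged from 24.8 through a median of 84.0 to 146 CPM in ILC2 and from 0.372 through 2.63 to 22.3 CPM in ILC3, without overlap (log2 fold change 4.54 ± 0.54). Cox6a2 (Entrez gene 12862, chromosome 7, 128205435 to 128206366), the heart and muscle form of a cytochrome c oxidase subunit, ranged from 12.2 through 27.5 to 50.7 CPM in ILC2. Its ILC3 range was 0.186 through 2.23 to 4.43 CPM, again without overlap (log2 fold change 3.67 ± 0.46). Over left-out libraries the log2 fold change ran from 4.12 to 5.41 for Klk1 and from 3.33 to 4.61 for Cox6a2, both highest without ILC3 ZT4 replicate 2 and lowest without ILC2 ZT4 replicate 2. Both genes were lowest in ZT4 replicate 1 of their cell type, where the ILC3 library held 2 counts of Klk1 and 1 of Cox6a2.

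The transcription factors differed less between the cell types. Tcf4 (Entrez gene 21413, chromosome 18, 69343429 to 69687967) ranged from 79.1 through 144 to 207 CPM in ILC2 and from 29.4 through 50.4 to 66.4 CPM in ILC3, with a log2 fold change of 1.51 ± 0.21. Runx2 (Entrez gene 12393, chromosome 17, 44495987 to 44814797), a runt-domain factor needed for mouse plasmacytoid dendritic cells to leave the bone marrow, ranged from 85.0 through 159 to 173 CPM in ILC2 and from 17.0 through 41.2 to 48.8 CPM in ILC3 (log2 fold change 1.93 ± 0.20). For both, the lowest ILC2 library, ZT4 replicate 1, stood above the highest ILC3 library.

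Irf8 and Pld4 were the members that overlapped between the cell types. Irf8 (Entrez gene 15900, chromosome 8, 120736358 to 120756694), an interferon regulatory factor also needed by conventional dendritic cells of the cross-presenting kind, had 121, 445, 266, 317, 350, 462 and 369 CPM in the ILC2 libraries in the order used for Siglech. Its ILC3 libraries had 203 and 182 CPM at ZT4, 202 and 260 CPM at ZT10, 200 and 242 CPM at ZT16, and 121 and 132 CPM at ZT23. Without ZT4 replicate 1 all ILC2 libraries would stand above the ILC3 range, and the log2 fold change over all libraries was 0.82 ± 0.23. Pld4 (Entrez gene 104759, chromosome 12, 112760446 to 112768986), an endosomal exonuclease that trims single-stranded nucleic acids, ranged from 201 through 233 to 342 CPM in ILC2 and from 132 through 195 to 382 CPM in ILC3 (log2 fold change 0.26 ± 0.18). Its highest library of all was ILC3 ZT4 replicate 1, which also had the highest conventional dendritic cell sum, 4689 CPM.

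In all, 7 of the 9 members had every ILC2 library above every ILC3 library, as did 5.57% of the 15339 genes tested. Since the members were chosen with this contrast in view, nothing is read from that count. At an adjusted p under 0.05, 12% of genes were higher and 15.1% lower in ILC2.

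**Figure D1:**
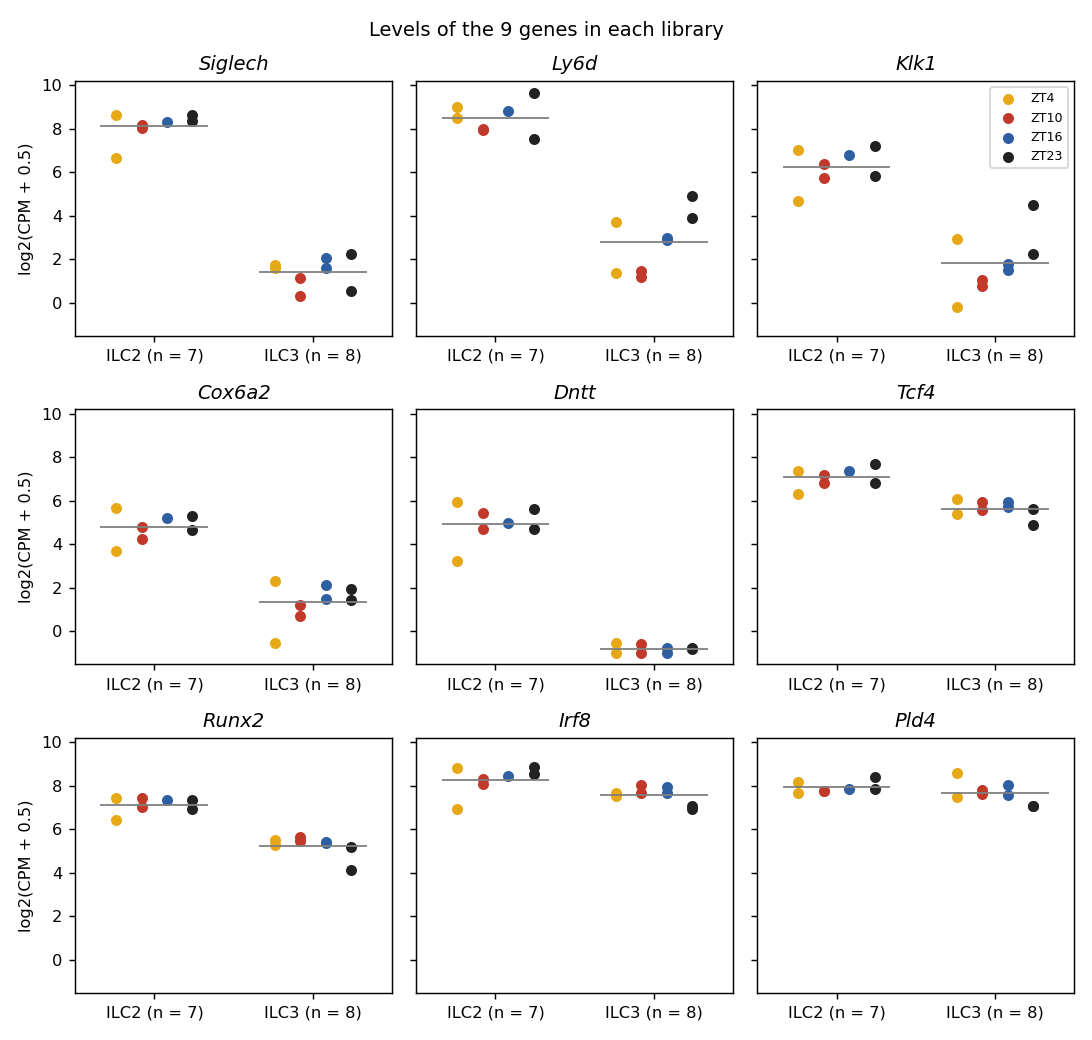
Level of each member in each library as log2(CPM + 0.5), in 7 ILC2 and 8 ILC3 libraries; points are libraries coloured by time and grey lines are means over libraries. Siglech, Ly6d, Klk1, Cox6a2, Dntt, Tcf4 and Runx2 do not overlap between the cell types, whereas Irf8 and Pld4 do, and 1 ILC2 library of ZT4 lies low for 8 of the 9 members.

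Compared per length (RPKM, CPM per kilobase of the counted gene length), Ly6d led in ILC2 with 582 ± 313 RPKM (SD, n = 7) and stood above the next member in all 7 libraries. Pld4 at 125 ± 25.5, Siglech at 125 ± 42.4 and Irf8 at 118 ± 40.9 RPKM formed a group in which Pld4 was above Siglech in 3 of 7 libraries and Siglech above Irf8 in 6 of 7. Klk1 followed with 98.5 ± 51.0 RPKM and Cox6a2 with 45.4 ± 20.1 RPKM. The lowest were Runx2 (20.6 ± 4.66 RPKM), Tcf4 (18.4 ± 5.57 RPKM) and Dntt (16.4 ± 8.21 RPKM), whose ranges overlapped. The order was another in ILC3, where Pld4 (107 ± 40.6 RPKM, SD, n = 8) and Irf8 (68.1 ± 17.0 RPKM) led in all 8 libraries. Ly6d, Tcf4, Klk1 and Runx2 then overlapped between means of 13.9 and 5.59 RPKM, Cox6a2 averaged 3.63 ± 2.14 RPKM, Siglech averaged 0.993 ± 0.510 RPKM and Dntt averaged 0.0338 ± 0.0328 RPKM.

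The level of each member relative to Siglech separated the members into sets. In ILC2, Irf8 stayed between 1.01 and 1.21 counts per Siglech count over all 7 libraries (median 1.12), the tightest ratio of the 8, while both genes varied about 4-fold in CPM. In ILC3 the same ratio had a median of 76.6 and ran from 31.0 to 268. Pld4 had a median of 0.745 counts per Siglech count in ILC2 and 103 in ILC3, Tcf4 0.515 in ILC2 and 24 in ILC3, and Runx2 0.449 in ILC2 and 17.1 in ILC3. The ratios of Klk1 (0.292 in ILC2 and 1.5 in ILC3), Cox6a2 (0.0980 in ILC2 and 1.06 in ILC3) and Ly6d (1.30 in ILC2 and 2.64 in ILC3) lay closer together. Dntt alone had a lower median ratio in ILC3, 0.0259, than in ILC2, 0.0994, and both rest on few counts in ILC3.

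**Figure D2:**
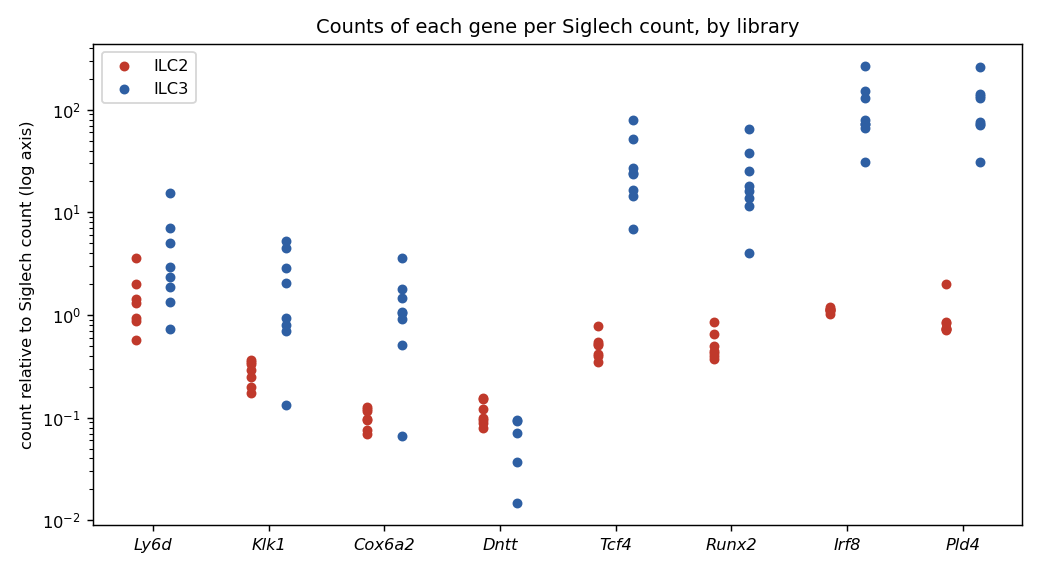
Counts of 8 members divided by the Siglech count of the same library, on a log axis; each point is a library, ILC2 left of ILC3 for each gene. Irf8 forms a narrow band near 1 in ILC2 and spreads from 31.0 to 268 in ILC3; the 3 ILC3 libraries with 0 counts of Dntt cannot be drawn.

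Joint variation was described with Pearson's r of log2(CPM + 0.5) over the libraries of 1 cell type, which share a batch label. In ILC2 all 36 pairs of members had r above 0, with a median of 0.79, and 17 pairs were above 0.8. The closest pair was Siglech with Irf8 (r = 0.99 over 7 libraries), and the loosest was Siglech with Ly6d (0.25). Irf8 had the highest r with Siglech of all 8806 genes with a mean of at least 10 CPM in ILC2. Dntt (r = 0.93) ranked at 107, Klk1 (0.90) at 167, Cox6a2 (0.88) at 226, Tcf4 (0.84) at 362, Runx2 (0.83) at 376, Pld4 (0.70) at 889 and Ly6d at 3032. So 6 of 8 members had an r above 0.8 with Siglech, against 6.48% of all genes with a value; the members were listed for this joint variation, and nothing more is read from the count.

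ILC2 ZT4 replicate 1 carried part of this pattern. It was the lowest ILC2 library for 8 of the 9 members, all but Ly6d, and its partner at the same time was 3.96 times higher for Siglech, 6.94 times for Dntt, 5.28 times for Klk1, 4.14 times for Cox6a2 and 3.68 times for Irf8. Without it, all 36 pairs remained above 0, with a median of 0.76 and 13 pairs above 0.8. Siglech and Irf8 still had an r of 0.99 over 6 libraries. Ly6d joined the rest, as its median r with the other members was 0.46 over 7 libraries and 0.78 over 6. Runx2 left it, with a median r of 0.78 over 7 libraries and 0.33 over 6, and Irf8 with Runx2 became the loosest pair at 0.07. Members with an r above 0.8 with Siglech were then 4 of 8, against 6.08% of genes.

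In ILC3 the members did not vary as 1 group. The median r over the 36 pairs was 0.01, with 18 pairs above and 18 below 0. Ly6d with Klk1 (r = 0.92) was the only pair above 0.8, and Ly6d with Cox6a2 had 0.65. Irf8 with Pld4 had an r of 0.72. Tcf4 with Runx2 had an r of 0.74 but a Spearman rho of 0.095, and ILC3 ZT23 replicate 2 was the lowest library for both genes. Ly6d and Klk1 had r below 0 with these 4 genes, down to -0.90 for Tcf4 with Klk1, -0.80 for Pld4 with Klk1 and -0.74 for Ly6d with Irf8. Cox6a2 was closer to 0 with Runx2 (-0.03) and Irf8 (-0.20). Siglech had r between -0.51 (Runx2) and 0.41 (Ly6d), and no member had an r above 0.8 with it, as did 0.426% of genes. With at most 74 counts of Siglech and 4 of Dntt in an ILC3 library, their r in ILC3 also holds counting error.

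**Figure D3:**
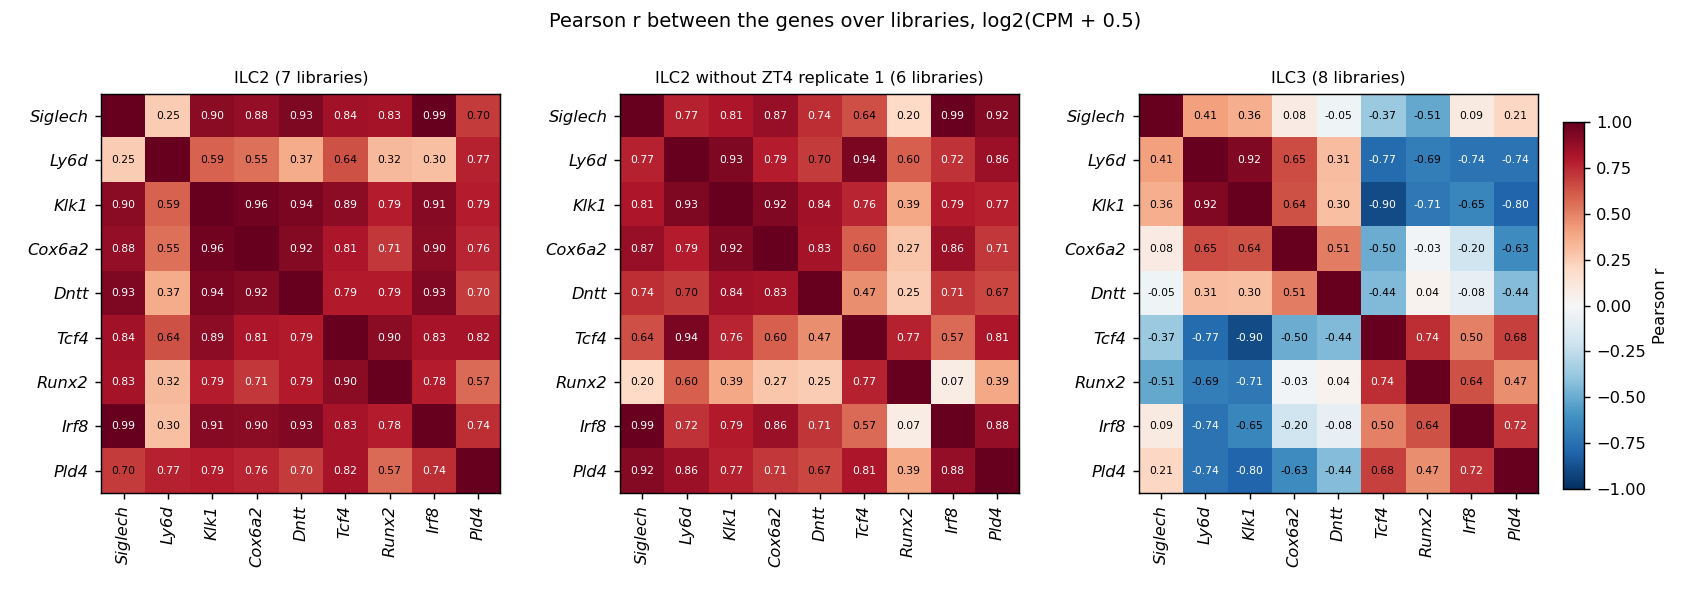
Pearson r between members over libraries, for 7 ILC2 libraries, for 6 ILC2 libraries without ZT4 replicate 1, and for 8 ILC3 libraries; red is positive and blue negative. All 36 pairs are above 0 in both ILC2 panels, and the ILC3 panel holds both signs, with r down to -0.90.

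Markers of other cell types moved with or against the members. In ILC2 the mean log2(CPM + 0.5) of 28 other plasmacytoid dendritic cell genes had an r between 0.76 and 0.94 with each of the 9 members over 7 libraries, and between 0.55 and 0.97 without ZT4 replicate 1. The mean of 12 epithelial markers had an r of 0.94 with Siglech and with Irf8 over 7 libraries, and of 0.61 and 0.63 without ZT4 replicate 1, the library with the lowest epithelial sum (81.6 CPM) and the highest macrophage sum (2757 CPM). The mean of 10 B cell markers had an r of 0.81 with Siglech and 0.83 with Irf8 over 7 libraries, and of 0.69 and 0.70 without that library. Plasma cell markers went closely with Ly6d (r = 0.93 with and without that library). Their r with Tcf4 was 0.74 over 7 libraries and 0.99 without that library, and with Siglech 0.28 and 0.57. The conventional dendritic cell list had r from -0.15 for Siglech to 0.69 for Ly6d over 7 libraries. Without ZT4 replicate 1 its r was positive with every member, from 0.37 for Dntt to 0.92 for Pld4. The eosinophil list ran from -0.01 for Siglech to 0.82 for Ly6d, and without that library from 0.46 for Irf8 to 0.91 for Runx2. The ILC2 marker list went against every member, from -0.68 for Dntt to -0.95 for Tcf4. So did the T cell list, from -0.34 for Dntt to -0.86 for Pld4. The ILC3 list did too, from -0.03 for Siglech to -0.86 for Ly6d. Without ZT4 replicate 1 the ILC3 list ran from -0.62 for Runx2 to -0.91 for Pld4, with -0.86 for Siglech. The macrophage list had a negative r with every member except Ly6d, from -0.20 for Pld4 to -0.75 for Dntt. Without ZT4 replicate 1 the r of the macrophage list ran from -0.47 for Dntt to 0.53 for Runx2. ILC2 ZT23 replicate 1 had the highest member sum (2618 CPM), the highest sum of other plasmacytoid dendritic cell genes (5829 CPM), the highest plasma cell sum (203871 CPM) and the lowest ILC2 marker sum (2072 CPM) of the ILC2 libraries. The part of these other cells in the joint variation was not tested.

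In ILC3 the members differed in the markers they followed. Pld4 followed the conventional dendritic cell list (r = 0.98 over 8 libraries), and Irf8 did so less closely (0.70). Klk1 followed the epithelial (0.96) and B cell lists (0.89), and so did Ly6d (0.83 and 0.85). Cox6a2 followed the T cell list (0.84), with which Ly6d had an r of 0.30 and Klk1 of 0.26. Tcf4 followed the ILC2 and ILC3 marker lists (0.95 and 0.93). Siglech followed the other plasmacytoid dendritic cell genes (0.81) and the eosinophil list (0.83), of which the defining gene Epx had 1 count in all ILC3 libraries. ILC3 ZT23 replicate 2 had the highest level of Ly6d and Klk1, the lowest of Tcf4 and Runx2, and the highest epithelial, plasma cell and B cell sums (4555, 4942 and 114 CPM), and their part in these relations was not tested.

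**Figure D4:**
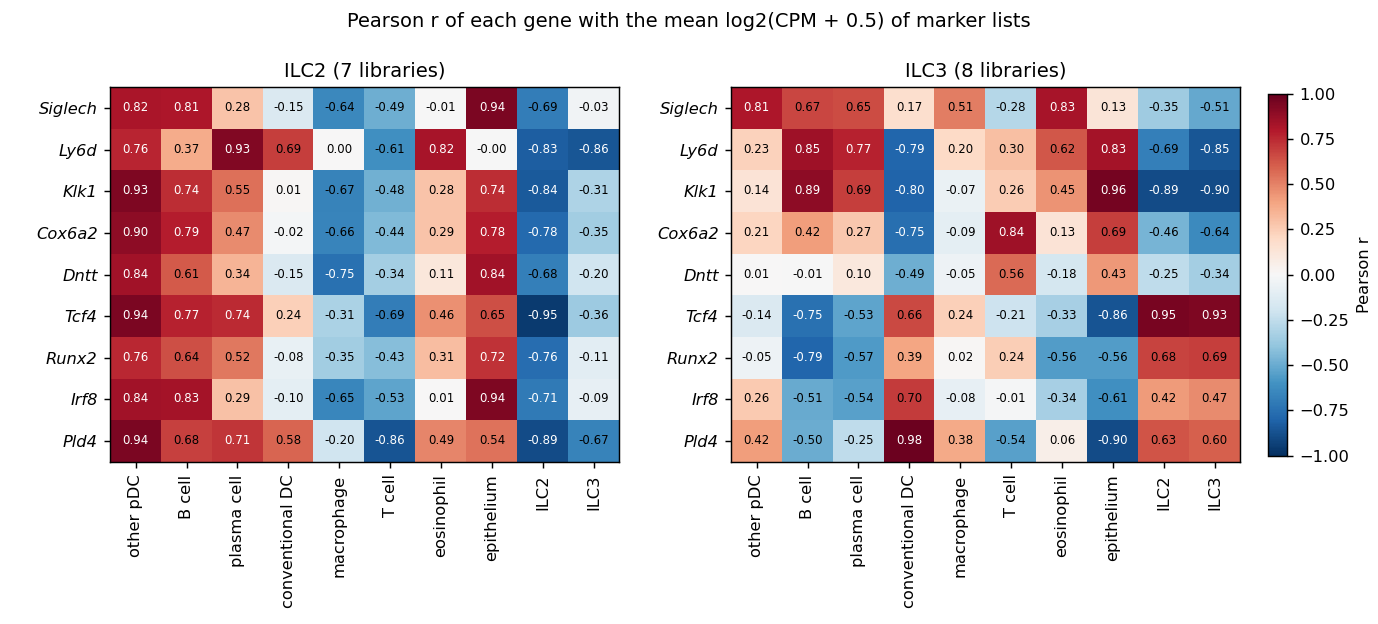
Pearson r of each member with the mean log2(CPM + 0.5) of 10 marker lists over 7 ILC2 and 8 ILC3 libraries. In ILC2 the column of other plasmacytoid dendritic cell genes is between 0.76 and 0.94 for all members, and in ILC3 Pld4 follows conventional dendritic cell markers (0.98), Klk1 epithelial markers (0.96) and Tcf4 the ILC lists (0.95 and 0.93).

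Siglech was also set against 6 single measures in each cell type, which makes 12 relations tested by exact two-sided permutation of pairings and adjusted over the 12. None passed an adjusted p of 0.05, and the smallest was 0.571 for Pearson's r and 0.261 for Spearman's rho. With Gata3 in ILC2, r was -0.63 (exact permutation p = 0.1004, adjusted 0.571) and rho was -0.75 (exact permutation p = 0.0663, adjusted 0.398), with r = -0.44 without the 2 libraries farthest from the median of Gata3. With the plasma cell gene Jchain, r was 0.15 in ILC2 (exact permutation p = 0.728, adjusted 0.795; rho 0.43, p = 0.354, adjusted 0.584) and 0.13 without the 2 farthest libraries. This r was 0.61 without ZT4 replicate 1 and -0.10 without ZT23 replicate 1. With total counts in ILC3, r was -0.42 (exact permutation p = 0.345, adjusted 0.587) and rho was -0.81 (exact permutation p = 0.0218, adjusted 0.261), with r = -0.62 without the 2 farthest libraries.

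The time of day was not part of the choice of members. Over the 4 times, edgeR's quasi-likelihood F-test called none of the 9 members in ILC2 and none in ILC3. It called none for a difference in time course between the cell types. In simulated counts these tests recovered 1% of 2-fold changes in ILC2, 13% in ILC3 and 0% for the difference. The absence of calls therefore does not show that a level was steady. The background was 0.0% of 15339 genes in each of these tests (Benjamini-Hochberg adjusted p under 0.05), and DESeq2 called 24 genes over time in ILC2, 24 in ILC3 and 2 for the difference, no member among them. At an unadjusted p under 0.05, edgeR gave 516 genes (3.36%) and no member in ILC2, and 669 genes (4.36%) with 2 members, Ly6d and Klk1, in ILC3; for the difference it gave 307 genes and no member. Siglech in ILC2 had means of 249 CPM at ZT4, 275 CPM at ZT10, 316 CPM at ZT16 and 363 CPM at ZT23, a 1.46-fold range over times beside a 3.96-fold gap between the 2 ZT4 libraries. Dntt means ranged 1.19-fold over times, beside a 6.94-fold gap within ZT4. Only for Ly6d in ILC3, Irf8 in ILC3 and Pld4 in ILC3 did the time means range further than the widest pair within a time. For Pld4 in ILC3 the ranges were nearly equal, 2.12-fold over times and 2.11-fold within ZT4.

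Ly6d in ILC3 averaged 7.28 CPM at ZT4, 2.02 CPM at ZT10, 7.06 CPM at ZT16 and 22.1 CPM at ZT23, a 10.9-fold range, with a gap of up to 6.12-fold within a time (edgeR adjusted p = 0.965 and DESeq2 adjusted p = 0.0937). Klk1 in ILC3 averaged 3.71, 1.37, 2.63 and 13.2 CPM at the same times, a 9.66-fold range beside an 18.9-fold gap within ZT4 (edgeR adjusted p = 0.965). Both had their highest mean at ZT23, with the library that had the highest epithelial sum, namely ILC3 ZT23 replicate 2. Over left-out libraries the edgeR adjusted p ran from 0.167 to 1 for Ly6d and from 0.200 to 1 for Klk1, both lowest without ILC3 ZT4 replicate 2 and neither past 0.05. Irf8 in ILC3 was lowest at ZT23 (126 ± 7.28 CPM) and highest at ZT10 (231 ± 40.9 CPM; SD, n = 2 each), a 1.83-fold range with an edgeR adjusted p of 0.969. Pld4 in ILC3 was highest at ZT4 (281 ± 142 CPM) and lowest at ZT23 (133 ± 0.399 CPM; SD, n = 2 each), with an edgeR adjusted p of 0.965.

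The list of 28 other plasmacytoid dendritic cell genes leaned the same way as the members. Of the 28, all tested, 21 were higher and 2 lower in ILC2 (edgeR adjusted p under 0.05), with a median log2 fold change of 1.5, against -0.11 over all genes tested. This list too was drawn up with results of these data known, so its count and the adjusted p-values of its genes serve as description only. Over all genes tested, 12% were higher and 15.1% lower in ILC2. Surface receptors were among the most abundant. Ly6c2 had 786 ± 501 CPM in ILC2 and 19.1 ± 9.10 CPM in ILC3 (log2 fold change 5.41 ± 0.41, adjusted p = 2.75e-06); reads may be split with its near-identical neighbour Ly6c1. The gut-homing receptor Ccr9 had 528 ± 52.4 CPM in ILC2 and 143 ± 51.4 CPM in ILC3 (1.90 ± 0.22, adjusted p = 5.32e-05), and Bst2, an interferon-induced tether of virus particles, had 471 ± 205 CPM in ILC2 and 131 ± 20.9 CPM in ILC3 (1.84 ± 0.22, adjusted p = 6.52e-05). The lectin-like receptor Klra17 (Ly49Q) had 34 ± 8.14 CPM in ILC2 and 6.28 ± 3.22 CPM in ILC3 (log2 fold change 2.52).

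Regulators and sensors of the same cells followed. Spib, an Ets factor, had 144 ± 54.3 CPM in ILC2 and 14.9 ± 6.29 CPM in ILC3 (log2 fold change 3.32 ± 0.27, adjusted p = 3.80e-06). Tlr7, the endosomal sensor of single-stranded RNA, had 67.1 ± 21.9 CPM in ILC2 and 11.0 ± 4.15 CPM in ILC3 (2.64 ± 0.17, adjusted p = 1.09e-06). Tlr9, the sensor of CpG DNA, had 44.7 ± 12.2 CPM in ILC2 and 23.2 ± 10.3 CPM in ILC3 (0.96 ± 0.20), and Irf7, the factor that drives interferon genes, had 120 ± 31.0 CPM in ILC2 and 53.6 ± 11.1 CPM in ILC3 (1.08 ± 0.15). Log2 fold changes above 4 were also seen for Smim5 (5.45), Fcrla (4.86), the signalling inhibitor Lefty1 (4.64), the lectin Cd209d (4.51) and the adaptor Blnk (4.49), which B cells also use. The 2 genes lower in ILC2 were Cd300c2 (18.4 ± 8.60 CPM in ILC2 and 49.6 ± 22 CPM in ILC3, log2 fold change -1.51) and Lag3, an inhibitory receptor that other lymphocytes also carry (58.1 ± 15 CPM in ILC2 and 145 ± 64.9 CPM in ILC3, -1.30). Zeb2, Pacsin1, Atp1b1, Ptprs and Kmo were not called.

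**Figure D5:**
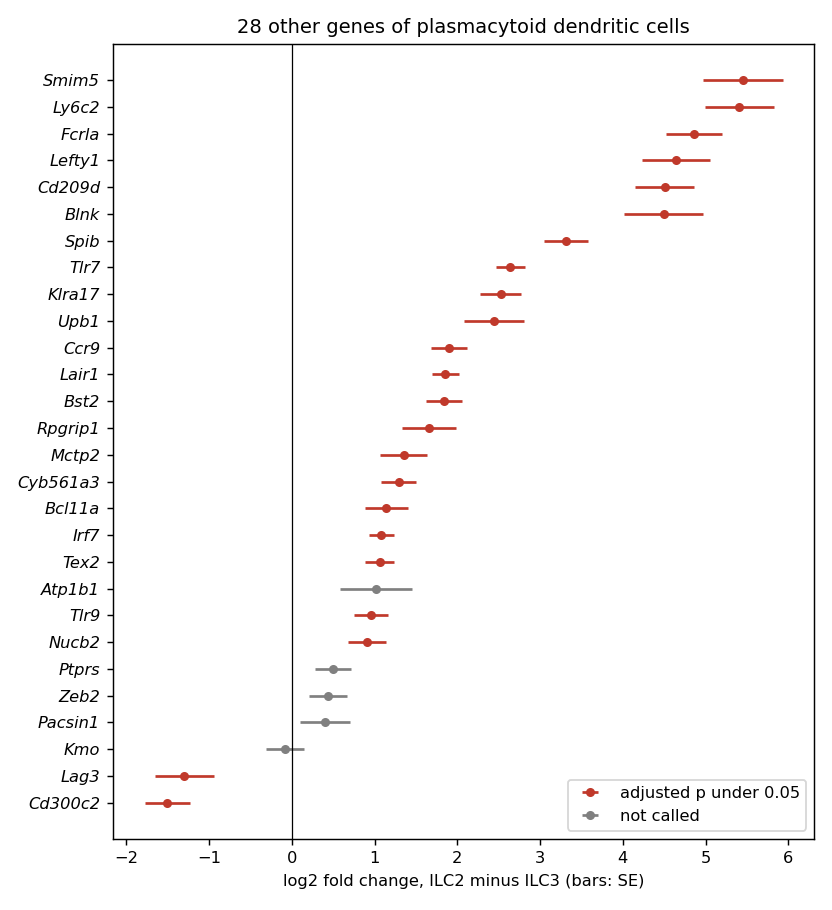
Fitted log2 fold change, ILC2 minus ILC3, of 28 other plasmacytoid dendritic cell genes with standard errors as bars; red marks an adjusted p under 0.05 in edgeR and grey the rest. Of the genes in red, 21 lie to the right of 0 and 2 to the left, from Smim5 at 5.45 to Cd300c2 at -1.51.

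Within ILC2 these 28 genes followed Siglech with a median r of 0.58 over 7 libraries, against 0.11 over all genes. Above 0.8 were 9 of the 28 (32.1%), against 6.48% of all genes with a value. This was not particular to them. Of 12 epithelial markers, 11 (91.7%) were above 0.8 with Siglech over the same libraries, with a median r of 0.89. The closest of the 28 were Pacsin1 and Atp1b1 (r = 0.98 each), neither of which differed between the cell types by the test. Spib had an r of 0.91 over 7 libraries and 0.83 without ZT4 replicate 1, and Tlr7 had 0.83 and 0.91. Without that library 3 of the 9 were no longer above 0.8: Nucb2 had an r of 0.92 with it and -0.21 without it, Bcl11a 0.91 and 0.25, and Rpgrip1 0.86 and -0.25. Other genes of the 28 passed 0.8 only without it. Lefty1 had an r of 0.37 with it and 0.94 without it, and Kmo 0.78 and 0.93. Lair1 had 0.63 and 0.85, Bst2 0.41 and 0.84, and Fcrla 0.46 and 0.84. The share of all genes above 0.8 without it was 6.08%. Ccr9 followed Siglech loosely (0.24 and 0.20), and Tex2 went against it (-0.79 and -0.84). In ILC3 the median r was 0.28, and none was above 0.8.

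Genes whose pattern was most like Siglech were named by the highest r among genes outside the members. Over the 7 ILC2 libraries these were Sort1 (0.99), Defa24 (0.99), Zpr1 (0.99), Tpm1 (0.99), Ccnd1 (0.98), Nelfa (0.98), Ldlrad3 (0.98), Tmem209 (0.98), Cdh1 (0.98) and Gtf3c6 (0.98), the top of 8679 genes, of which 495 were above 0.8. Defa24, a Paneth cell defensin of a family of near-identical copies, and Cdh1, an epithelial cadherin, were at 159 ± 170 and 62.9 ± 26.6 CPM in ILC2 and at 566 ± 1102 and 126 ± 58.5 CPM in ILC3. Of the 10, Ldlrad3 alone was called higher in ILC2 (14.5 ± 5.46 CPM in ILC2 and 3.21 ± 1.03 CPM in ILC3, log2 fold change 2.24 ± 0.32, edgeR adjusted p = 2.27e-04). Without ZT4 replicate 1, their r with Siglech lay between 0.85 and 0.98. Over the 8 ILC3 libraries the closest included Bcam (0.96), Pdhx (0.96), Faap100 (0.94) and Anxa3 (0.93), of 12350 genes with a mean of at least 1 CPM, of which 57 were above 0.8.

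Genes that act beside Dntt in antigen receptor rearrangement were counted as well. Rag1, which cuts at the recombination signals together with Rag2, had 24 counts in 3 ILC2 libraries and 1 count in ILC3, and Rag2 had 0 counts in all 15 libraries, which allows up to 0.0376 CPM in pooled ILC2 and 0.0188 CPM in pooled ILC3 (3 counts, counting error only). Of 16 tested genes of recombination and lymphoid precursors, 6 were higher and 2 lower in ILC2, with a median log2 fold change of 0.53. The shares over all genes tested were 12% higher and 15.1% lower. Vpreb3 had 25.0 ± 16.7 CPM in ILC2 and 1.46 ± 0.812 CPM in ILC3 (log2 fold change 4.18 ± 0.46, edgeR adjusted p = 3.30e-05). Vpreb1 had 17 counts in ILC2 and 7 in ILC3, Vpreb2 had 4 and 1, and Igll1 had 0 in both cell types. Ptcra, the invariant chain of the precursor T cell receptor also known from human plasmacytoid dendritic cells, had 124 counts in 6 ILC2 libraries and 2 counts in ILC3, a ratio of pooled levels of 124 with an exact 95% interval of 33.5 to 1033. The polymerases Polm and Poll and the ligase Lig4, which act at the same joints, were also higher in ILC2, with log2 fold changes of 0.65, 0.67 and 1.21. Cd34 and Flt3, genes of precursor cells, were lower, with log2 fold changes of -3.43 and -1.09. Flt3 is counted again below among the conventional dendritic cell markers. Hmgb1 and Xrcc6 were the most abundant of the recombination and precursor list after Flt3, and were not called. They had 69.4 ± 6.77 and 40.7 ± 8.73 CPM in ILC2 and 65.5 ± 10.4 and 39.8 ± 7.63 CPM in ILC3.

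Among 17 E proteins, Id proteins and other regulators around Tcf4, 6 were higher and 3 lower in ILC2, with a median log2 fold change of 0.12. Spib, Bcl11a and Zeb2 are on this list and on that of other plasmacytoid dendritic cell genes, so the counts are not separate. Over all genes tested, 12% were higher and 15.1% lower, with a median of -0.11. Ikzf1 (508 ± 74.7 CPM in ILC2 and 319 ± 80.3 CPM in ILC3, log2 fold change 0.69) and Irf4 (414 ± 138 and 163 ± 92.5 CPM, 1.44) were higher, as were the E proteins Tcf3 (0.66) and Tcf12 (0.58). Id2, the inhibitor of E proteins on which innate lymphoid cells depend, had 451 ± 111 CPM in ILC2 and 489 ± 88.8 CPM in ILC3 (log2 fold change -0.13 ± 0.19, not called). The Ets factor Spi1 was lower (51.6 ± 17.1 CPM in ILC2 and 241 ± 102 CPM in ILC3, -2.21). Of 16 tested genes of nucleic acid sensing and interferon signalling, 7 were higher and 2 lower in ILC2, with a median log2 fold change of 0.22. Tlr7, Tlr9 and Irf7, already counted among the other plasmacytoid dendritic cell genes, are among those higher. Ifnar1, a chain of the type I interferon receptor, had 201 ± 45.9 CPM in ILC2 and 96.0 ± 26.7 CPM in ILC3 (1.02), and Irak1 had 164 ± 23.9 and 123 ± 27.3 CPM (0.45). The chaperone Unc93b1, which carries Tlr7 and Tlr9 to endosomes, had 439 ± 119 CPM in ILC2 and 459 ± 158 CPM in ILC3 and was not called. Interferon transcripts themselves were scarce, with 2 counts of Ifna1, 11 of Ifnl2 and 6 of Ifnl3 in ILC2, none of these in ILC3, and 0 counts of Ifnb1, Ifna2 and Ifna4 in all libraries.

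Markers of related cells were counted in the same contrast, in which 12% of all genes tested were higher and 15.1% lower in ILC2. All 10 plasma cell markers were higher in ILC2, led by Jchain (78584 ± 56443 CPM in ILC2 and 1433 ± 1257 CPM in ILC3), with Txndc5 at 2993 ± 1746 and 165 ± 54.2 CPM and Xbp1 at 2109 ± 1202 and 219 ± 41.0 CPM. Of 10 B cell markers, 3 were higher, among them Cd79a and Cd79b, and Cd79a had 380 ± 284 CPM in ILC2 and 11.8 ± 12.9 CPM in ILC3, whereas Ms4a1 (4.77 ± 2.33 and 4.19 ± 3.53 CPM) and Blk (14.8 ± 6.49 and 16.4 ± 3.04 CPM) were not called. Of 12 conventional dendritic cell markers, 1 was higher and 9 were lower in ILC2, with Itgax at 186 ± 28 CPM in ILC2 and 663 ± 311 CPM in ILC3 and Wdfy4 at 79.6 ± 25.6 and 690 ± 318 CPM. T cell markers split into 5 higher, led by Cd28 (263 ± 61.3 CPM in ILC2 and 12 ± 2.02 CPM in ILC3), and 5 lower, among them Lck (142 ± 44.2 and 305 ± 146 CPM). Of 12 macrophage and monocyte markers, 1 was higher and 4 were lower, with Lyz2 at 497 ± 384 CPM in ILC2 and 993 ± 319 CPM in ILC3. Of 7 tested eosinophil markers, 2 were higher and 4 lower, and the defining gene Epx had 0 counts in ILC2 although Prg2 had 183 ± 145 CPM in ILC2 and 2.24 ± 1.64 CPM in ILC3. The ILC2 list had 8 of 10 higher, the ILC3 list had 8 of 10 lower, and the epithelial list had 1 of 12 lower and none higher in ILC2. Their part in the levels of the members was not tested.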

How the data were processed

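PolyA RNA of sorted ILC2 and ILC3 was extracted with an RNeasy Micro kit and made into TruSeq libraries from 100 ng of RNA, per the labels' protocols. The authors deposited raw read counts per Entrez gene with gene lengths, 1 table per library; counting used featureCounts on mm10, per the submitters' processing notes. No source used here names the aligner, the strand setting or the treatment of reads with several matches. Of 22797 genes, 22718 were named with the RefSeq table of GRCm38.p6, the same build.

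Genes were kept with filterByExpr (minimum count 10), which left 15339 including all 9 members. The edgeR 4.0.16 model (R 4.3.3, TMM scaling) had 8 group means over 15 libraries (7 residual degrees of freedom) and shared 1 estimate of spread because ILC2 at ZT16 has 1 library. P-values were adjusted by Benjamini-Hochberg over all genes tested, with a threshold of 0.05. Levels are CPM scaled with TMM, and correlations use log2(CPM + 0.5). DESeq2 1.42.0, other scalings, no filter, a replicate block and leaving out each library were alternatives. The fits were tested on simulated counts, with genes changed at ZT16 and ZT23 of 1 cell type for the time tests. Of 100 genes changed 2-fold, 1% were recovered for time in ILC2, 13% for time in ILC3 and 0% for the difference in time course. Of 100 genes changed 4-fold, the shares were 46%, 69% and 9%. Changes between the cell types were recovered in 56% at 2-fold and 92% at 4-fold. Libraries of 1 group differed by more than sampling noise (chi-square per degree of freedom 22 to 229), so none were merged.

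The members, the gene lists and the rules for named genes were chosen with earlier results of these data known, and the epithelial list was added after the members' values in ILC3 were seen. All members are named. A few genes picked by these rules are not reported here, although list counts include them. Of the other plasmacytoid dendritic cell list, the 8 with the highest ILC2 mean and those called with a mean of at least 10 CPM could be named; of other lists, up to 3 with the highest ILC2 mean, with Rag1 and Rag2; further names were chosen after their values were seen. Intervals and floors of 3 counts cover counting error only, since the reads carry no molecular identifiers.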

Additional observations from a re-analysis of the deposited data

Results flagged for a closer look

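Each member was checked in each cell type for a lowest or highest library set apart from the rest. The measure was the gap to its neighbour over the whole range, both taken on log2(CPM + 0.5). The gaps and ranges below are on that scale and not in CPM, so a pass holds for that scale only. Of 18 such groups, 3 passed Dixon's 95% critical value (0.568 for 7 libraries and 0.526 for 8), and chance passes about 1 in 20. Siglech in ILC2 ZT4 replicate 1 was at 100 CPM, with a gap of 0.694 of the range below the next library. Irf8 in the same library was at 121 CPM, with a gap of 0.588 of the range. Runx2 in ILC3 ZT23 replicate 2 was at 17.0 CPM, with a gap of 0.696 of the range.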

How the results depend on the processing

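In ILC2 the median r between members was 0.76 to 0.89 when each library was left out in turn, and 0.85 with the mean of its time subtracted. In ILC3 the median r of 0.01 lay close to 0 and turned negative with a pseudocount of 0.1 (-0.022) and with the mean of its time subtracted (-0.093), and ran from -0.092 to 0.047 over left-out libraries. DESeq2 called 24 genes over time in ILC2, 24 in ILC3 and 2 for the difference in time course where edgeR called 0 in each, and the cause was not tested. Leaving out ILC3 ZT23 replicate 1 gave 3 genes over time in ILC3, so the count ran from 0 to 3 over left-out libraries. No alternative that gave a value called a member over time. The Dntt fold change ran from 8.13 to 9.66 over left-out libraries, lowest without ILC2 ZT4 replicate 2 and highest without ILC3 ZT4 replicate 2. ILC2 against ILC3 gave 1839 genes higher and 2318 lower with TMM, and 1315 and 2981 with library size as the only scaling, where the median of all genes moved from -0.11 to -0.26; the 9 fold changes kept their sign, from 0.12 for Pld4 to 8.47 for Dntt. The 28 other plasmacytoid dendritic cell genes had 21 or 22 higher and 2 lower under every alternative run.

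Replicate numbers did not pair the libraries: correlations of deviations between same-numbered libraries were 0.00 to 0.08 in ILC2 and -0.16 to 0.42 in ILC3. With the replicate block, 0 genes were called over time in ILC2, 0 in ILC3 and 0 for the difference, and 3872 between the cell types against 4157 without it.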
